A study of Homo sapiens with 7 samples.

Results

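Hepcidin and 9 further genes of iron homeostasis were examined in the hepatocellular carcinoma line Huh-7 after depletion of the RNA-binding protein IGF2BP1. The 10 genes are HAMP, TF, TFR2, TFRC, FTH1, FTL, SLC40A1, HFE, HFE2 and TMPRSS6, and each was found once by its symbol among the 58174 genes of the deposited table. They were selected on knowledge of iron metabolism and on the siIGF2BP1 and siC FPKM values themselves, with the difference of HAMP known. Their differences between the groups are therefore given as a description, without p-values, and how many of them pass a threshold is not evidence about them. Cells received either control siRNAs (siC, 3 libraries) or a pool of siRNAs against IGF2BP1 (siIGF2BP1, labeled siImp1, 4 libraries) and were harvested after 72 h, in medium with 10% FBS and without any stated iron or cytokine treatment. The labels do not say whether the libraries of a group came from separate cultures, so the spread between them may in part be technical. Levels are FPKM, reads scaled to gene length and library depth, and differences are siIGF2BP1 minus siC on the log2(FPKM + 0.1) scale.

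Systemic iron is held in balance by hepcidin, a peptide hormone that hepatocytes secrete and that makes cells withdraw ferroportin, the iron exporter encoded by SLC40A1. Its gene HAMP is driven in hepatocytes by BMP ligands, whose receptors signal through SMAD proteins with hemojuvelin (HFE2) as co-receptor, and by IL6 through STAT3, while HFE and transferrin receptor 2 (TFR2) report iron-loaded transferrin and the protease TMPRSS6 dampens the BMP signal. Within the cell, iron regulatory proteins bind a hairpin, the iron-responsive element (IRE), in the untranslated regions of transcripts for storage, export and uptake of iron.

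The control region of HAMP is shown because both inducing pathways end on it. RefSeq sequences of 300 bases around the annotated start were matched for 7 of the 10 genes. The HAMP sequence (RefSeq, GRCh38.p14, chr19:35282278-35282577, plus strand, 250 bases before the start and 50 from it) holds 1 match to the BMP-responsive core GGCGCC and 1 to the STAT motif TTCNNNGAA, both in capitals. Both motifs read the same on either strand, and their first letters lie at -105 and -93 from the start, with 6 bases between the matches.

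HAMP promoter: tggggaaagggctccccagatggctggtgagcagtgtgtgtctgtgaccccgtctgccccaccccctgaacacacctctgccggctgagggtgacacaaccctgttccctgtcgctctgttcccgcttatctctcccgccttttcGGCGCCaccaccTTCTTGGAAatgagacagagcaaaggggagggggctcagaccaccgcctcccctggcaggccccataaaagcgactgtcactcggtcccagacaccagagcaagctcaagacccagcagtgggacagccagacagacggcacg

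Of all 35116 promoters of this length, 19.22% held GGCGCC and 7.66% held TTCNNNGAA. Among the 7 genes, GGCGCC was found in 3 (HAMP, TF and TFRC) and TTCNNNGAA in 2 (HAMP and HFE2), so that HAMP alone held both. The E-box CACGTG, present in 7.26% of all promoters, was found in 0 of the 7. A match of letters describes these windows and does not show a bound site.

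The IREs are shown because they mark the transcripts that iron regulatory proteins can bind. The search asked for a C, 5 bases, the loop CAGTGN and 5 bases pairing with the first 5, and used the canonical transcripts of GENCODE v44 (GRCh38). It would miss elements with another loop, so the counts are of matches to this pattern and may leave out IREs. An element was found in the 5′ untranslated region of FTH1, FTL and SLC40A1, where bound proteins block translation, and 4 times in the 3′ untranslated region of TFRC, where they protect the mRNA. The 7 windows of 30 bases read 5′ to 3′ on the transcript, with the loop in capitals.
FTH1 (chr11:61967573-61967602, minus strand): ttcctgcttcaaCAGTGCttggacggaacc
FTL (chr19:48965335-48965364, plus strand): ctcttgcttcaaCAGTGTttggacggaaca
SLC40A1 (chr2:189580660-189580689, minus strand): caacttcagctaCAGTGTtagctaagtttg
TFRC a (chr3:196050978-196051007, minus strand): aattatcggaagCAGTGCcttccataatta
TFRC b (chr3:196050574-196050603, minus strand): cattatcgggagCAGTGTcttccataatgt
TFRC c (chr3:196050509-196050538, minus strand): ctgtatcggagaCAGTGAtctccatatgtt
TFRC d (chr3:196050462-196050491, minus strand): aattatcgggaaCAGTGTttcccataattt

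Such an element was present in the 5′ untranslated region of 0.095% and in the 3′ untranslated region of 0.609% of 20046 protein-coding canonical transcripts. The search also matched 1 stretch in the long 3′ untranslated region annotated for TF, which is not known as an IRE transcript.

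The libraries held from 12826550 to 33212205 reads on genes. IGF2BP1 itself fell to 19.2% of siC, from 82.2 ± 2.03 FPKM (SD, n = 3) to 15.8 ± 0.583 FPKM (SD, n = 4), a log2 difference of -2.37 (limma adjusted p = 1.2e-05). All 7 hepatocyte markers examined were above 1 FPKM, with summed levels from 5627 to 6888 FPKM in siC and from 6064 to 6233 FPKM in siIGF2BP1. Single markers differed in direction. ALB was between 1705.4 and 1884.3 FPKM in siC and between 1943.5 and 2041.5 FPKM in siIGF2BP1. APOB was between 541.4 and 669.4 FPKM and between 450.6 and 516.9 FPKM, respectively. For the other hepatocyte markers the groups overlapped. Of the erythroid markers, 4 of 5 were at 0 in each library and EPOR was between 0.831 and 1.30 FPKM. Of 6 macrophage markers, CD163 was at 0 in each library and 3 others were under 0.1 FPKM, but LYZ was between 147.3 and 162.5 FPKM in siC and between 112.8 and 129.1 FPKM in siIGF2BP1, and CD14 between 0.462 and 1.24 FPKM and between 2.04 and 2.66 FPKM, respectively. The summed level of this list was from 147.7 to 163.8 FPKM in siC and from 114.9 to 131.2 FPKM in siIGF2BP1, and its part in the results was not tested. PECAM1 was between 2.58 and 3.29 FPKM and the other 3 endothelial markers were under 0.1 FPKM, while 0 of 4 stellate cell markers reached a mean of 1 FPKM. The library siC replicate 3 stood apart from the other 6 on the first principal component (34.5% of the variance), so differences are also given without it. In a bulk sample, a change in the share of expressing cells and a change per cell cannot be told apart.

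The hormone showed the largest difference of the 10 genes. HAMP (ENSG00000105697, GRCh38 chromosome 19, 35280716 to 35285143, plus strand, 3 exons in the canonical transcript) was at 0.502, 0.550 and 0.531 FPKM in siC replicates 1 to 3, from 33, 53 and 22 reads. In siIGF2BP1 replicates 1 to 4 it was at 3.17, 2.91, 2.66 and 3.30 FPKM, from 173, 164, 106 and 129 reads. Each siIGF2BP1 library thus lay far above each siC library, and the siC values, siC replicate 3 among them, lay close together. Counting error on so few siC reads limits that level, so its small spread should not be taken as precision. The mean was 5.70-fold higher, going from 0.528 ± 0.0240 FPKM (SD, n = 3) to 3.01 ± 0.287 FPKM (SD, n = 4). On the log2(FPKM + 0.1) scale, which compresses such low values, the difference was 2.30 (SE 0.139), and 2.31 without siC replicate 3. HAMP reached the mean of 1 FPKM required for a test only through the siIGF2BP1 libraries.

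The level of HAMP depends on the length assigned to the gene. The deposited table lists 3010 bases for it, whereas the canonical transcript has 406 bases. Per base of that transcript, the mean would be 3.91 in siC and 22.3 in siIGF2BP1, at an unchanged ratio between the groups. This assumes that all reads counted on the gene lie on that transcript, which was not checked. Later levels per base of canonical transcripts rest on the same assumption.

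**Figure D1:**
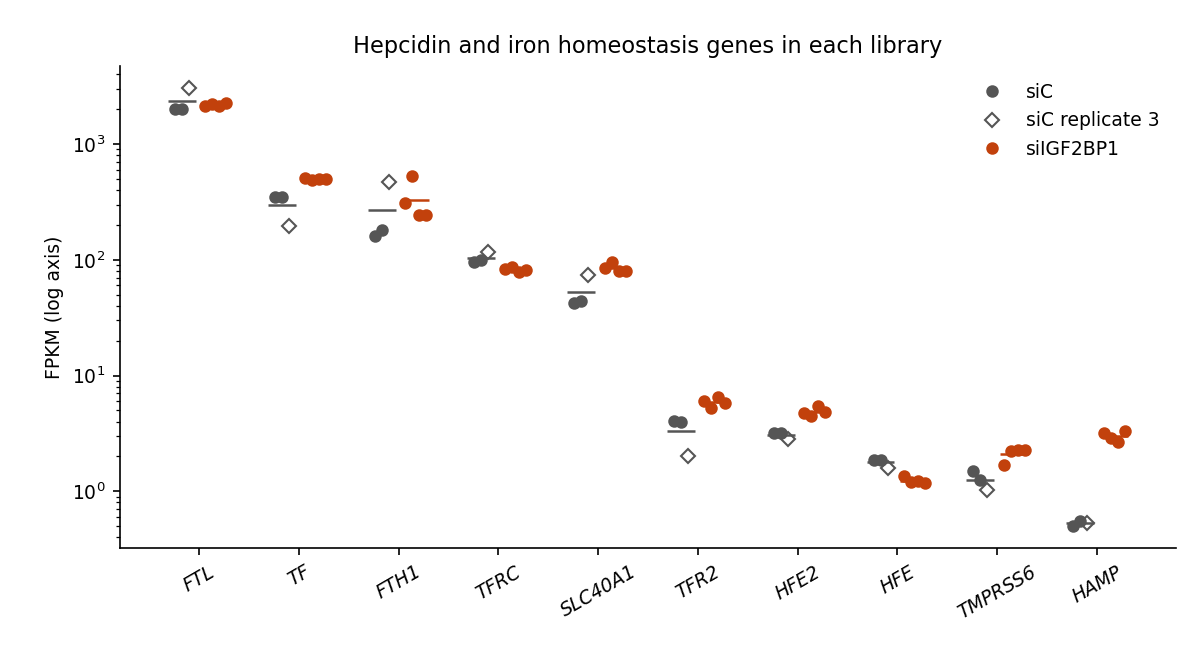
FPKM (log axis) of the 10 iron homeostasis genes in each library, siC in gray with replicate 3 as an open diamond and siIGF2BP1 in orange; horizontal lines are group means. HAMP moves from about 0.528 FPKM to about 3.01 FPKM, while FTL, the most abundant, lies between 2023 and 2273 FPKM except in siC replicate 3 (3058 FPKM).

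Transferrin, the plasma carrier of iron, was one of the abundant transcripts. TF (chromosome 3, plus strand) was at 350.3, 350.9 and 195.2 FPKM in siC replicates 1 to 3 and at 512.5, 491.4, 496.9 and 498.5 FPKM in siIGF2BP1 replicates 1 to 4. The groups did not overlap, and siC replicate 3 was at 0.557 of the mean of the other siC libraries. The log2 difference was 0.79 (SE 0.207), of which 0.51 was left without siC replicate 3. TF shares its strand and part of its locus with SRPRB in GENCODE v44.

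Of the transferrin receptors, the general uptake receptor was lower and the hepatocyte sensor higher. TFRC, which imports iron-loaded transferrin into dividing cells, was at 95.9, 100.1 and 116.7 FPKM in siC and at 84.1, 87.3, 78.1 and 82.4 FPKM in siIGF2BP1. Every siIGF2BP1 value lay under every siC value, with the mean at 79.6% of siC, a log2 difference of -0.33 (SE 0.0851) and -0.24 without siC replicate 3. TFR2, which is found mainly in hepatocytes and erythroid precursors, was at 4.02, 3.94 and 2.02 FPKM in siC and at 6.02, 5.26, 6.54 and 5.76 FPKM in siIGF2BP1. Here siC replicate 3 was the lowest library, and the groups did not overlap. The log2 difference of TFR2 was 0.87 (SE 0.236), falling to 0.55 without that library.

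Among the upstream regulators of hepcidin, the co-receptor and the inhibitory protease were both higher. HFE2 (hemojuvelin, HJV in newer annotations) was at 3.182, 3.16 and 2.85 FPKM in siC and at 4.72, 4.43, 5.46 and 4.87 FPKM in siIGF2BP1, a log2 difference of 0.65 (SE 0.0925). Its siC libraries were tight, and without siC replicate 3 the difference was 0.60. TMPRSS6 (matriptase-2), which cleaves hemojuvelin, was at 1.49, 1.25 and 1.03 FPKM in siC and at 1.69, 2.22, 2.29 and 2.26 FPKM in siIGF2BP1. The groups were close at their edges, since siIGF2BP1 replicate 1 lay just over siC replicate 1, on 125 and 133 reads. The log2 difference of TMPRSS6 was 0.71 (SE 0.176), and 0.59 without siC replicate 3.

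HFE, the MHC-like protein that is mutated in the commonest hereditary hemochromatosis, had lower values in siIGF2BP1. It was at 1.86, 1.88 and 1.60 FPKM in siC and at 1.36, 1.19, 1.22 and 1.17 FPKM in siIGF2BP1. All siIGF2BP1 values were below all siC values, at 69.4% of the siC mean, with from 86 to 342 reads per library. The log2 difference was -0.49 (SE 0.138) and -0.56 without siC replicate 3. HFE lies opposite the histone gene H2BC4 on the other strand.

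The exporter, the target of hepcidin, had higher values in siIGF2BP1. SLC40A1 (ferroportin) was at 42.6, 43.7 and 73.3 FPKM in siC and at 85.4, 94.8, 80.7 and 80.1 FPKM in siIGF2BP1. The siC group was split by replicate 3, which came close to the siIGF2BP1 libraries without reaching them. The log2 difference was 0.72 (SE 0.194) with all libraries and 0.98 without siC replicate 3.

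Ferritin stores iron in shells of heavy (FTH1) and light (FTL) chains. FTL was the most abundant of the 10 genes in each group, at 2029, 2023 and 3058 FPKM in siC and at 2133, 2240, 2149 and 2273 FPKM in siIGF2BP1. The groups overlapped through siC replicate 3 alone, and the log2 difference changed sign with it, from -0.081 (SE 0.170) to 0.12. FTH1 was at 161.4, 182.1 and 472.6 FPKM in siC and at 309.5, 526.2, 246.2 and 244.8 FPKM in siIGF2BP1. Single libraries of both groups were high, siC replicate 3 and siIGF2BP1 replicate 2, and the groups overlapped. The log2 difference of FTH1 was 0.39 (SE 0.433), and 0.88 without siC replicate 3.

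Both ferritin genes have many processed pseudogenes, and reads of such copies are hard to assign. The table lists 25 FTH1 pseudogenes, 11 of them with a mean of at least 1 FPKM, and their reads together came to between 9.85% and 12.1% of the reads on FTH1 in each library. The most abundant, FTH1P2, was at 15.9, 15.2 and 36.3 FPKM in siC and at 30.5, 41.7, 21.8 and 29.2 FPKM in siIGF2BP1. The pseudogene reads thus followed the library pattern of FTH1, with 9 of the 11 higher in siC replicate 3 than in the other siC libraries and 8 of the 11 highest in siIGF2BP1 replicate 2 among siIGF2BP1 libraries. For FTL, 16 pseudogenes were listed, and their reads were from 0.698% to 0.796% of those on FTL. Among these, FTLP3 was the most abundant, with 24.9, 21.3 and 35.1 FPKM in siC and from 25.5 to 26.2 FPKM in siIGF2BP1. FTH1 also overlaps BEST1 on the other strand.

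**Figure D2:**
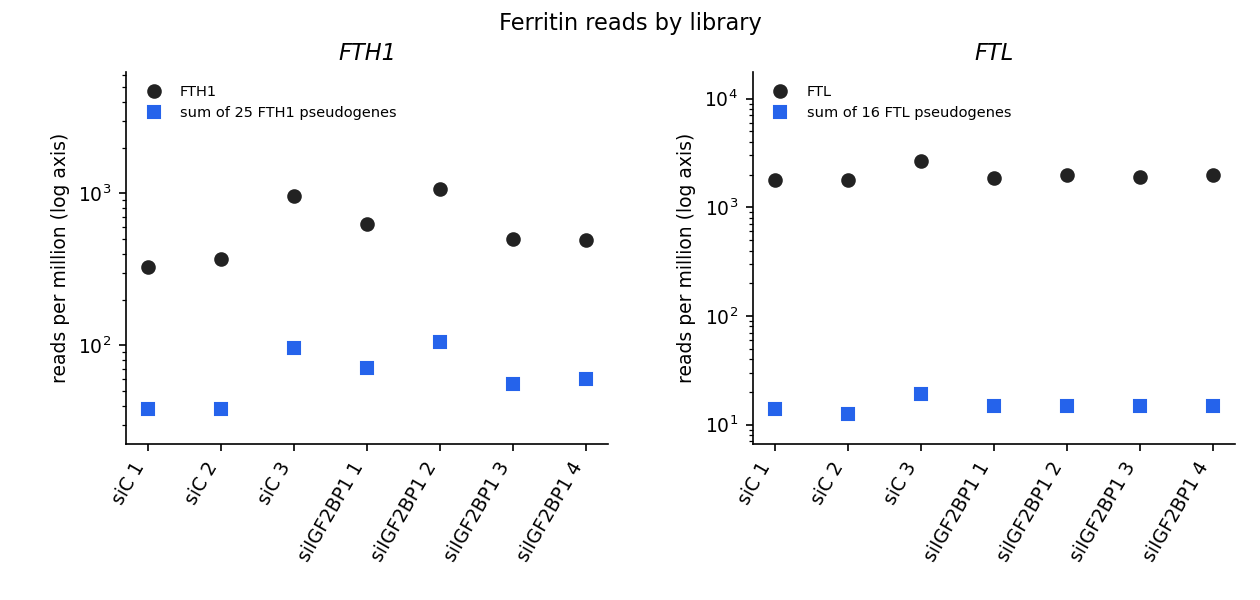
Depth-scaled reads (CPM, log axis) on FTH1 and FTL (black circles) and on the sum of their listed pseudogenes (blue squares) in each of the 7 libraries. The FTH1 pseudogenes follow FTH1, at 9.85% to 12.1% of its reads, and both are high in siC replicate 3 and siIGF2BP1 replicate 2.

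The ratio of FTL to FTH1 in FPKM was 12.6, 11.1 and 6.47 in siC replicates 1 to 3 and 6.89, 4.26, 8.73 and 9.29 in siIGF2BP1 replicates 1 to 4. Per base of the canonical transcripts, which are shorter than the listed length mainly for FTH1, the ratios were lower, from 3.87 to 7.51 in siC and from 2.54 to 5.55 in siIGF2BP1. On both scales every library held more light than heavy chain transcript per base. The ranges of the groups overlapped through siC replicate 3.

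In FPKM as deposited, which rests on the listed gene lengths, the siC order was FTL, TF, FTH1, TFRC, SLC40A1, TFR2, HFE2, HFE, TMPRSS6 and HAMP. The ranges of neighbors overlapped for TF with FTH1 and for TFR2 with HFE2, and were separate for the other neighbors. In siIGF2BP1, SLC40A1 stood before TFRC, and HAMP stood at rank 8 in place of rank 10, above TMPRSS6 and HFE. In siIGF2BP1 the ranges of TF and FTH1, of SLC40A1 and TFRC and of TFR2 and HFE2 overlapped. The order changed when levels were taken per base of the canonical transcript. HAMP then stood at rank 7 in siC, between TFR2 and HFE2 and overlapping TFR2, and at rank 6 in siIGF2BP1, above TFR2 without overlap. TF, with 20166 bases in its canonical transcript against 8565 in the table, then stood at rank 4 in siC and rank 3 in siIGF2BP1. Of those 20166 bases, 18021 are annotated as 3′ untranslated region, so these ranks of TF rest on that annotation. FTL and FTH1 were the first and second in both groups on this scale.

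Across the 10 genes, 7 had a higher and 3 a lower mean in siIGF2BP1. The groups did not overlap for 8 of them (6 higher, 2 lower), against 27% of the 14839 genes tested, and nothing is read from this count because the same values chose the genes. In the fit across all genes, 2 of the 10 (HAMP and HFE2) lay past the adjusted p of 0.01, beside 3.93% of all genes, 1.65% higher and 2.28% lower. This count likewise is not a test of the 10, which were chosen on the values fitted, and HAMP entered the fit only through the group in which it was high. The median log2 difference of the 10 was 0.68, and 0.57 without siC replicate 3, beside -0.017 and -0.031 over all genes tested. Nothing is read from this either, because the same values chose the 10 genes.

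**Figure D3:**
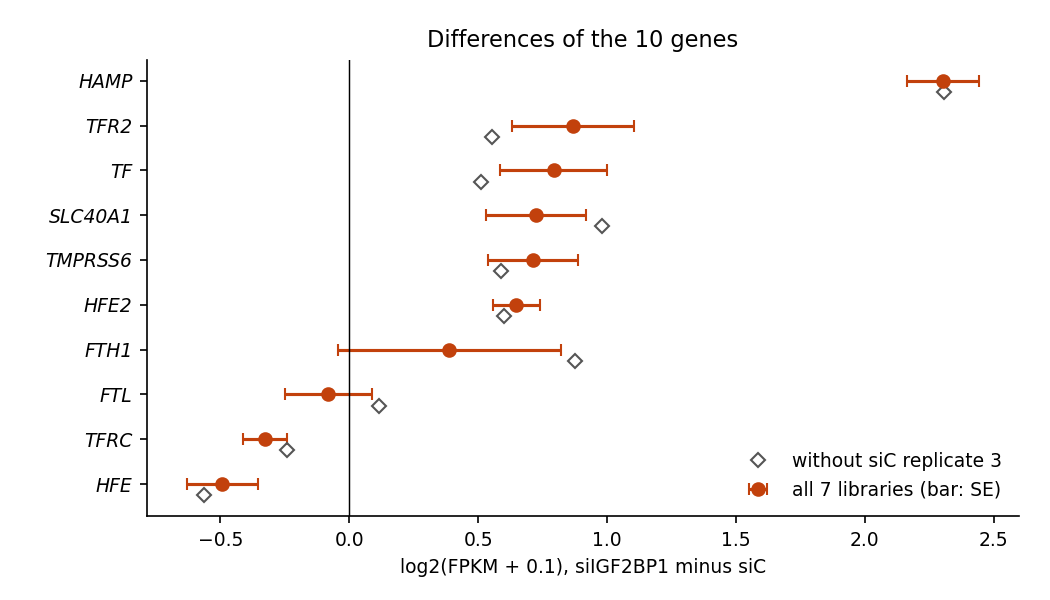
Log2 differences (siIGF2BP1 minus siC, log2(FPKM + 0.1) scale) of the 10 genes, with all 7 libraries (orange, bars are SE) and without siC replicate 3 (open diamonds). HAMP stays at 2.30 and 2.31, whereas FTL crosses 0, from -0.081 to 0.12.

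**Figure D4:**
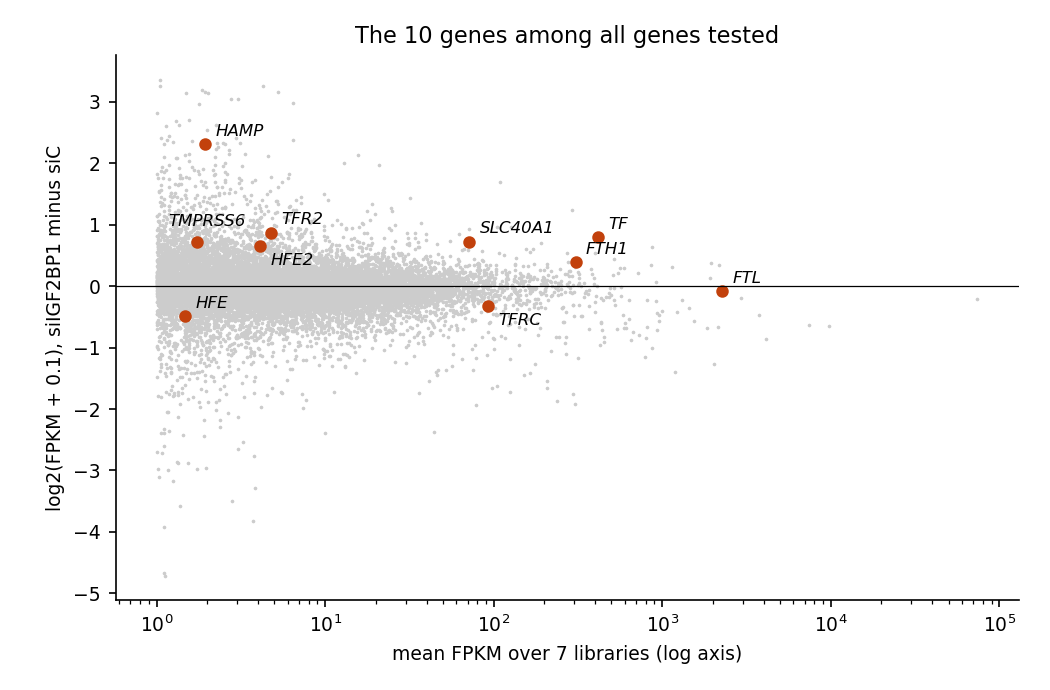
Mean FPKM over the 7 libraries (log axis) against the log2 difference (siIGF2BP1 minus siC) for all 14839 genes tested (gray), with the 10 iron homeostasis genes in orange. HAMP lies among genes of low level at 2.30, and FTL at the abundant end at -0.081.

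To see what the surrounding network did, 97 other genes of hepcidin control and iron handling were followed in 12 lists. The lists were written from general knowledge of iron metabolism, but with earlier results of these data known. Shares and medians of the lists, here and below, are therefore a description beside all genes and no independent test. Of the 97 genes, 85 were tested, and 10 were higher and 2 lower in siIGF2BP1 at the adjusted p of 0.01 (limma). These made up 14.1% of the genes tested, against 3.93% of all genes. The background of all genes includes noncoding ones. When only protein-coding genes were fitted, 16 of the 85 list genes passed, beside 871 of 10672 genes, so that the contrast was smaller. At an unadjusted p under 0.05, 26 of the 85 genes were higher and 11 of the 85 lower. Among all 14839 genes, 1638 (11%) were higher and 2200 (14.8%) lower. The median log2 difference of the 85 genes was 0.11, against -0.017 over all genes. Their groups did not overlap for 37, or 43.5%, against 27% of all genes. The calls depended on the libraries. Without siC replicate 3 there were 15 higher and 5 lower, the 12 among them, beside 10.3% of all genes in that fit, but without any 1 of the other libraries only 1 or 2 genes passed. SMAD6 passed in 7 of 7 such fits and each of the other 11 in 1 or 2.

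Downstream of the BMP receptors, calls fell on feedback genes and on 1 SMAD effector. SMAD6, an inhibitory SMAD that BMP signals induce, was at 13.4, 13.3 and 13.3 FPKM in siC and at 22.8, 21.0, 24.5 and 23.4 FPKM in siIGF2BP1, a log2 difference of 0.78 (SE 0.0656, limma adjusted p = 0.00108). SMAD7, the inhibitory SMAD that restrains hepcidin, rose from 10.5 ± 0.451 FPKM (SD, n = 3) to 14.8 ± 1.08 FPKM (SD, n = 4), a log2 difference of 0.48 (limma adjusted p = 0.00965). It passed narrowly, and did not pass without a filter or without the mean-variance trend (limma adjusted p = 0.0183 and 0.0159). The list of SMAD feedback and target genes held 2 higher and 0 lower among 6 tested. All 6 had a higher mean with an unadjusted p under 0.05, beside 11% of all genes, and groups without overlap, beside 27% of all genes, with a median log2 difference of 0.41 (0.38 without siC replicate 3). The other 4 (ID1, ID2, ID3 and BAMBI) did not pass. ID1, the most abundant of them, had a siC mean of 272 ± 8.97 FPKM (SD, n = 3) and a siIGF2BP1 mean of 306 ± 0.989 FPKM (SD, n = 4) (log2 difference 0.17, limma adjusted p = 0.139).

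Of the 13 tested genes of the BMP-SMAD arm itself, 1 was higher and 0 were lower. This was SMAD9, a receptor-regulated SMAD, at 2.05, 2.45 and 2.63 FPKM in siC and at 4.21, 4.19, 4.325 and 4.51 FPKM in siIGF2BP1 (log2 difference 0.84, SE 0.0998, limma adjusted p = 0.00341). The ligand BMP2 had a siC mean of 34.1 ± 1.77 FPKM (SD, n = 3) and a siIGF2BP1 mean of 38.1 ± 2.22 FPKM (SD, n = 4) (log2 difference 0.16, limma adjusted p = 0.205). BMP6, a main hepcidin-inducing ligand of liver endothelium, had at most 3 reads in any library and was not tested. The type I receptors BMPR1A and ACVR1 had log2 differences of 0.097 and 0.096 (limma adjusted p = 0.393 and 0.830). The type II receptor BMPR2 had a siC mean of 10.2 ± 2.31 FPKM (SD, n = 3) and a siIGF2BP1 mean of 7.01 ± 0.480 FPKM (SD, n = 4), and its groups did not overlap (log2 difference -0.51, limma adjusted p = 0.0682). NEO1, which binds hemojuvelin, had a log2 difference of -0.044 (limma adjusted p = 0.867). The list median was 0.097, and 0.20 without siC replicate 3.

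In the IL6 arm, the transcription factor and its feedback gene rose. STAT3 was at 10.2, 10.5 and 9.62 FPKM in siC and at 15.0, 14.4, 14.2 and 14.4 FPKM in siIGF2BP1 (log2 difference 0.52, SE 0.0571, limma adjusted p = 0.00263). SOCS3, the inhibitor that STAT3 induces, was at 1.139, 1.199 and 0.930 FPKM and at 2.85, 2.09, 2.29 and 2.56 FPKM, respectively (log2 difference 1.10, limma adjusted p = 0.00649), with at least 35 reads in each library. These were 2 higher and 0 lower among 7 tested, with a list median of 0.19 (0.23 without siC replicate 3). IL6 had at most 6 reads in any library. Its receptor subunits IL6R and IL6ST had log2 differences of 0.26 and 0.16 (limma adjusted p = 0.1498 and 0.210).

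Of the other regulators of hepcidin, 2 of 8 tested genes were higher and 0 lower at the adjusted p of 0.01. CREB3L3, a liver transcription factor known to act on HAMP, rose from 2.71 ± 0.169 FPKM (SD, n = 3) to 4.97 ± 0.655 FPKM (SD, n = 4), a log2 difference of 0.85 (limma adjusted p = 0.00646). GDF15, a stress-induced cytokine, rose from 23.3 ± 3.97 FPKM (SD, n = 3) to 42.0 ± 2.91 FPKM (SD, n = 4), a log2 difference of 0.86 (limma adjusted p = 0.00690). CEBPA, an activator of HAMP, had a log2 difference of -0.067 (limma adjusted p = 0.610), which was 0.065 after quantile normalization. USF1 was lower without overlap of the groups but did not pass (log2 difference -0.56, limma adjusted p = 0.0430). Without siC replicate 3 it passed as lower (log2 difference -0.73, limma adjusted p = 0.00203). The list median was 0.30 and fell to 0.11 without siC replicate 3.

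Of the plasma carriers of iron and heme besides TF, HP and CP rose. HP (haptoglobin), which binds free hemoglobin, was at 2.91, 3.01 and 1.63 FPKM in siC and at 9.50, 8.81, 7.96 and 9.09 FPKM in siIGF2BP1 (log2 difference 1.82, SE 0.208, limma adjusted p = 0.00291). HP has a close paralog and overlaps TXNL4B on the other strand, so its reads may be shared. CP (ceruloplasmin), the ferroxidase that works with ferroportin, rose from 11.96 ± 0.953 FPKM (SD, n = 3) to 18.7 ± 1.499 FPKM (SD, n = 4), a log2 difference of 0.64 (limma adjusted p = 0.00575), and overlaps HPS3 on the other strand. HPX (hemopexin) had a siC mean of 16.6 ± 3.64 FPKM (SD, n = 3) and a siIGF2BP1 mean of 30.6 ± 1.15 FPKM (SD, n = 4) and narrowly missed the threshold (log2 difference 0.91, limma adjusted p = 0.0109), which it passed without siC replicate 3 (limma adjusted p = 0.000526). Thus 2 of 3 tested genes were higher and 0 lower, with a list median of 0.91 (0.71 without siC replicate 3).

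Among 11 tested transporters of iron and heme, 0 were higher and 1 was lower. SLC39A14 (ZIP14), which takes up iron not bound to transferrin, was at 72.6, 74.3 and 86.2 FPKM in siC and at 46.3, 54.2, 44.3 and 45.4 FPKM in siIGF2BP1 (log2 difference -0.71, SE 0.0979, limma adjusted p = 0.00604). Each siIGF2BP1 library was below each siC library. The list median was 0.14 (0.16 without siC replicate 3), and at an unadjusted p under 0.05 there were 3 higher and 4 lower.

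For intracellular iron sensing, no call was made. Of the regulators ACO1 (IRP1), IREB2 (IRP2) and FBXL5, the ligase subunit that degrades IREB2, 0 of 3 passed with limma on FPKM and 0 with voom on the recovered reads, and 1 had an unadjusted p under 0.05. ACO1 had a siC mean of 9.998 ± 0.430 FPKM (SD, n = 3) and a siIGF2BP1 mean of 10.4 ± 0.448 FPKM (SD, n = 4), a log2 difference of 0.054 (limma adjusted p = 0.658). IREB2 was at 15.6, 16.8 and 26.9 FPKM in siC and from 16.6 to 20.85 FPKM in siIGF2BP1, with a log2 difference of -0.087 (limma adjusted p = 0.831) that became 0.16 without siC replicate 3. FBXL5 had a log2 difference of 0.15 (limma adjusted p = 0.124). The median of these 3 regulators was 0.054 (0.16 without siC replicate 3). Among IRE transcripts outside the 10 genes, 0 of 5 passed with limma and 0 with voom, and 1 had an unadjusted p under 0.05. The most abundant of these, EPAS1, had a log2 difference of 0.020 (limma adjusted p = 0.929) and -0.091 without siC replicate 3. The median of the 5 transcripts was 0.092 (0.20 without siC replicate 3).

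In ferritin handling, 0 of 4 tested genes passed with limma and 0 with voom, and 1 had an unadjusted p under 0.05. That 1 was NCOA4, the receptor that delivers ferritin to lysosomes, at 100.5, 104.1 and 100.5 FPKM in siC and at 119.5, 118.5, 119.5 and 119.5 FPKM in siIGF2BP1 (log2 difference 0.23, limma adjusted p = 0.0349, and 0.00588 without siC replicate 3). PCBP1, an iron chaperone for ferritin, had a log2 difference of -0.21 (limma adjusted p = 0.389), and -0.38 without siC replicate 3 (limma adjusted p = 0.00210). This list had a median of -0.072, and 0.083 without siC replicate 3.

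Each of the heme lists held 1 call, and the iron-sulfur list held 0. CPOX, an enzyme of heme synthesis, rose from 33.4 ± 1.51 FPKM (SD, n = 3) to 45.1 ± 0.938 FPKM (SD, n = 4), a log2 difference of 0.44 (limma adjusted p = 0.00483), and was 1 higher beside 0 lower among 8 tested. PPOX of the same list was lower without overlap of the groups (log2 difference -0.56, limma adjusted p = 0.0126). It passed without siC replicate 3 (limma adjusted p = 0.00397). Voom called 1 higher and 1 lower in this list. Means were higher for 3 and lower for 5 of the 8 genes, with a median log2 difference of -0.038 (-0.16 without siC replicate 3). ALAS1, the rate-limiting enzyme in liver, had a log2 difference of 0.12 (limma adjusted p = 0.691), and -0.070 without siC replicate 3. BLVRB, a biliverdin reductase, fell from 14.5 ± 2.24 FPKM (SD, n = 3) to 8.75 ± 0.287 FPKM (SD, n = 4), a log2 difference of -0.71 (limma adjusted p = 0.00712), and was 1 lower beside 0 higher among 4 genes of heme degradation. Their median log2 difference was -0.031 (-0.18 without siC replicate 3). HMOX1, the heme oxygenase, had a log2 difference of 0.38 (limma adjusted p = 0.309), and 0.099 without siC replicate 3. Of 14 genes of mitochondrial iron import and iron-sulfur assembly, 0 passed with limma and 0 with voom, and 3 had a lower mean with an unadjusted p under 0.05, against 0 with a higher mean. The median log2 difference of the 14 genes was -0.063 (-0.062 without siC replicate 3). HSPA9, the most abundant of these, had a log2 difference of 0.11 (limma adjusted p = 0.683), and -0.063 without siC replicate 3.

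**Figure D5:**
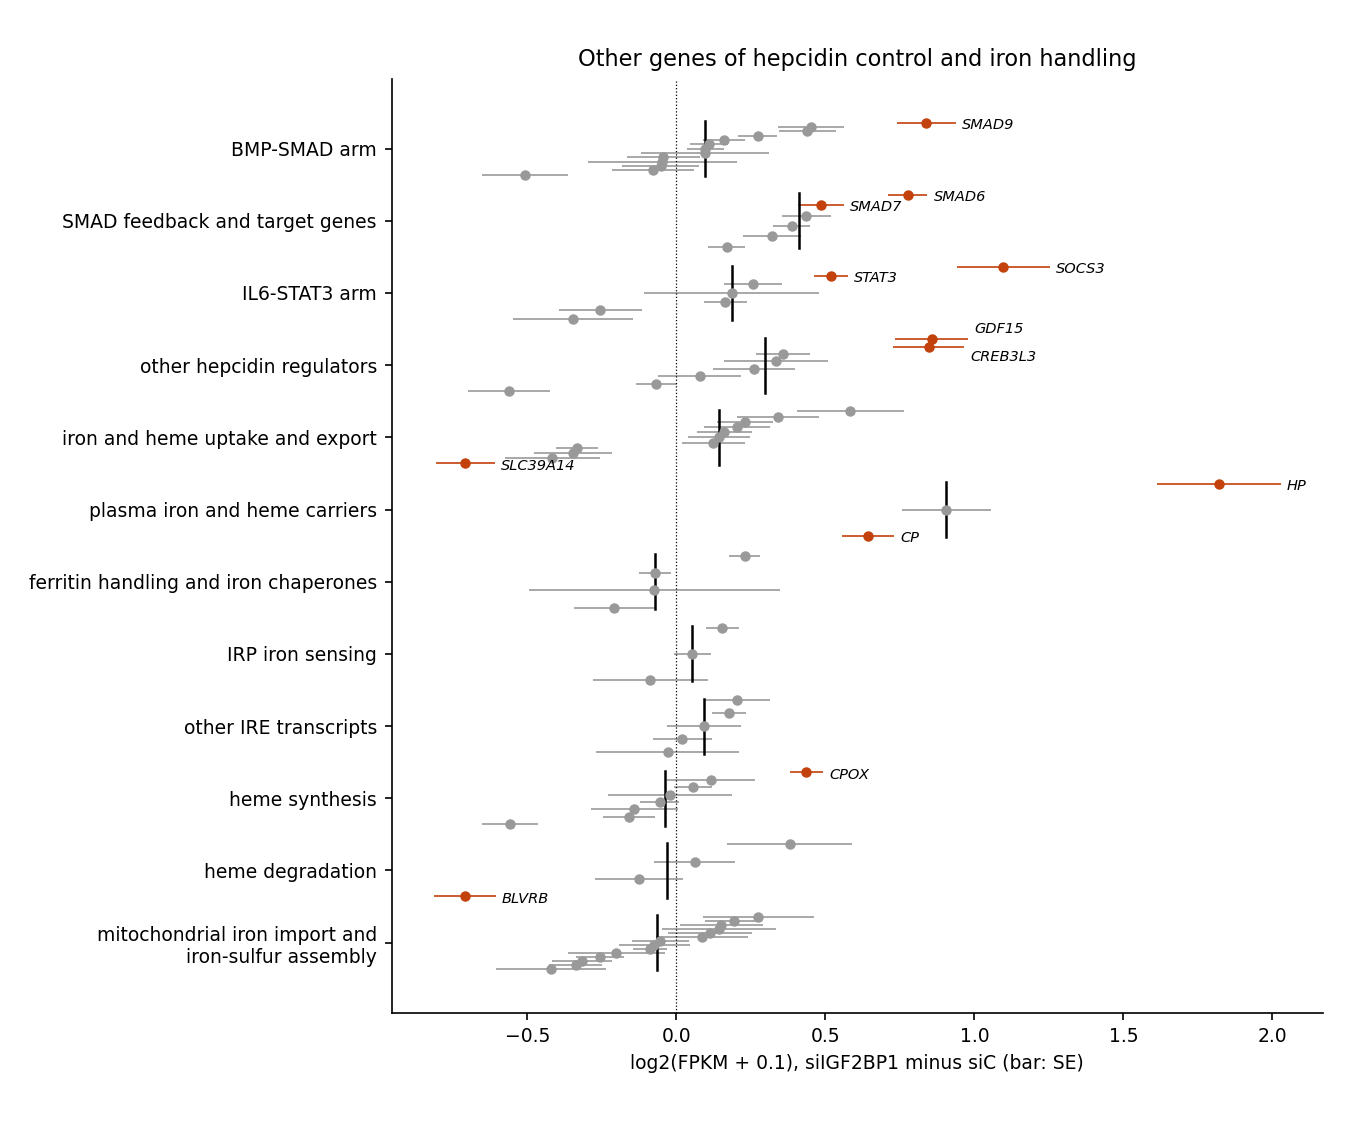
Log2 differences (siIGF2BP1 minus siC, log2(FPKM + 0.1) scale, bars are SE) of the 85 tested genes outside the 10, by list, with the 12 past a limma adjusted p of 0.01 in orange and list medians as black lines. SLC11A2, in 2 lists, is drawn in both, and the 10 higher genes fall in the hepcidin control, plasma carrier and heme synthesis lists.

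Over the 7 libraries, the 5 protein-coding genes whose log2 values followed HAMP most closely, among 10671, were UGT2B4, SERPINA7, UGT1A1, ABLIM3 and SLC22A9, with Pearson correlations from 0.997 to 0.998. These correlations over 7 libraries rest mainly on the contrast between the groups and are a description. SERPINA7 and UGT1A1, like HAMP, reached the required mean of 1 FPKM only through the siIGF2BP1 libraries. Mean levels were 7.17 and 12.6 FPKM for UGT2B4, 0.457 and 4.50 FPKM for SERPINA7, 0.501 and 2.37 FPKM for UGT1A1, 1.08 and 2.42 FPKM for ABLIM3 and 15.6 and 30.1 FPKM for SLC22A9 in siC and siIGF2BP1, respectively. UGT1A1 shares exons with other UGT1A genes, and UGT2B4 has close paralogs, so their reads may be split.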

How the data were processed

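Total RNA of 3 siC and 4 siIGF2BP1 libraries of Huh-7 cells was depleted of rRNA and sequenced from directional libraries. According to the methods and the processing notes, the authors used Cutadapt 1.14, HISAT2 2.1.0 (GRCh38), featureCounts 1.5.3 and edgeR 3.18.1 with TMM scaling. The deposited values are FPKM per gene, with a gene length. The strand setting and the treatment of multi-mapping reads are not given in the sources used here. The deposited log2 fold changes, p-values and FDR values of the authors were not used.

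FPKM times length gave whole reads (within 0.05) for 100% of values above 0, and thereby the depth, from 12826550 to 33212205 reads per library. The 14839 genes whose mean over the 7 libraries reached 1 FPKM were tested with limma 3.58.1 (R 4.3.3, mean-variance trend) on log2(FPKM + 0.1), two-sided, with Benjamini-Hochberg adjustment over all genes and a threshold of 0.01. Alternatives were voom on the recovered reads, other pseudocounts, filters, scalings and thresholds, array weights, the replicate block and leaving out each library. The 10 genes, the lists and the rule for genes named were chosen with earlier results of these data known. Named were the 10 genes, IGF2BP1, list genes past the threshold, the most abundant tested gene of each list, 9 fixed regulators and the 5 genes most like HAMP; other genes were named after their values were seen. Loci, overlaps and IREs came from GENCODE v44 and promoters from RefSeq, both GRCh38, while the counting used Ensembl release 89. P-values measure only the spread between these libraries.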

Additional observations from a re-analysis of the deposited data

Results flagged for a closer look

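In the 4 siIGF2BP1 libraries, 3 of 42 genes examined had 1 library far from the other 3, where chance gives about 2.1. For TMPRSS6, replicate 1 (1.69 FPKM) lay below the others (2.22 to 2.29 FPKM), and the gap made up 0.881 of the range. For SMAD7, replicate 2 (13.2 FPKM) lay below the others (15.1 to 15.5 FPKM), with a gap of 0.849 of the range. For NCOA4, replicate 2 (118.5 FPKM) lay below the others (all at 119.5 FPKM), with a gap of 0.980 of a range that is narrow beside the difference from siC. With 3 libraries, siC was too small for the same look.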

How the results depend on the processing

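The log2 difference of HAMP ran from 1.39 (pseudocount 1) to 2.49 (quantile normalization) over its settings, and 9 of the 10 genes kept their direction throughout. FTL changed sign in 3 settings, with a range from -0.18 to 0.29. Counts of genes past the threshold moved more. Those of the 10 are descriptions and no tests, as the genes were chosen on these values and HAMP met the filter only through siIGF2BP1. The replicate block, fitted without siIGF2BP1 replicate 4 (no partner), left 0 genes of all, 0 list genes and 0 of the 10 past the limma threshold, with 2382 genes at an unadjusted p under 0.05, while voom without a block passed 842, 15 and 2. Whether same-numbered libraries were paired is not known. Their deviations from the group means correlated at -0.026, -0.12 and -0.11. These values cannot decide it, because siC replicate 3 stood apart and shifts the siC means from which the deviations were taken. Without a filter, 352 of all genes, 5 list genes and 1 of the 10 passed, and at a mean of at least 5 FPKM 0 of the 10, as HAMP and HFE2 were no longer tested. Array weights gave 2744, 35 and 7, and the looser threshold of 0.05 gave 1713 of all genes and 23 list genes. Leaving out 1 library gave from 129 to 1523 of all genes, from 1 to 20 list genes and from 1 to 5 of the 10, the highest each time without siC replicate 3. Quantile normalization gave 14 list genes higher and 0 lower, against 10 and 2, and 279 of all genes higher and 260 lower, against 245 and 338. Small, uncalled differences changed sign. Over fits without 1 library, ACVR1 ran from -0.072 to 0.36 (-0.0016 without siC replicate 1), NEO1 from -0.12 to 0.0058, IREB2 from -0.24 to 0.16, EPAS1 from -0.091 to 0.082, ALAS1 from -0.070 to 0.22 and HSPA9 from -0.063 to 0.20, and the last 4 turned on leaving out siC replicate 3. Array weights gave 0.11, -0.066, -0.049 and -0.030 for these 4, and quantile normalization gave 0.065 for CEBPA. The cause was not tested. HAMP had from 22 to 53 reads in siC, and counting error limits its siC level.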
